A study of Mus musculus with 2 samples.

Results

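Potassium channel genes other than those of tandem-pore (Kcnk) channels were described in the adrenal gland of newborn mice. They were chosen by name: every Kcn symbol outside the Kcnk series with at least 1 protein-coding transcript in the deposited tables. The rule used no measured value and gave 79 genes out of 22028 protein-coding and 55536 annotated genes. The study profiled total RNA with ERCC spike-ins from the adrenal gland of male B6CASTF1/J mice aged 4 days, the first-generation hybrid of C57BL/6J and CAST/EiJ. It held 1 group with 2 biological replicates, no treatment and no second condition, so comparisons were made among genes and between the 2 libraries. The labels number the animals as different males, although both samples carry a single donor label, and they were treated as separate animals. Levels are in TPM, counts scaled for transcript length and then to a fixed total per library, and a gene was called detected at a mean of 1 TPM or more. A p-value below compares the counts of the 2 libraries and says nothing of a condition.

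Potassium channels let potassium leave or enter a cell down its electrochemical gradient and so set the resting membrane potential and end electrical activity. In the adrenal cortex a strongly negative resting potential, held by potassium conductance, keeps voltage-gated calcium channels of aldosterone-producing cells closed until angiotensin II or plasma potassium depolarises them. In chromaffin cells of the medulla, calcium-activated and voltage-gated potassium channels shape the action potentials that drive catecholamine release. Each channel is built from pore-forming subunits around a common selectivity filter, and auxiliary subunits alter its gating or its transport to the membrane.

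The pore is the sequence that joins these families, so the coding stretch of the filter is shown for 7 abundant members, whose levels follow. Capitals mark 5 codons in frame for threonine or serine, any residue, glycine, tyrosine or phenylalanine, and glycine. Each window is 45 bases of the main coding transcript, read 5′ to 3′ on the gene's strand and placed on GRCm38 (mm10), and each lies within 1 exon.
Kcnma1 (chr14:23528398-23528442, minus strand): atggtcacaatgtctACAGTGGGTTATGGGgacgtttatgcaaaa
Kcnh2 (chr5:24325540-24325584, minus strand): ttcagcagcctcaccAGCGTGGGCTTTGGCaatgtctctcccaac
Kcnj8 (chr6:142566433-142566477, minus strand): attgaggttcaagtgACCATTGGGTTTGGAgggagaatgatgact
Kcnc4 (chr3:107447784-107447828, minus strand): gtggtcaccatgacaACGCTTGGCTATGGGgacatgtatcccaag
Kcng3 (chr17:83587899-83587943, minus strand): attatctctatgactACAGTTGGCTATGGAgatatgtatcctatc
Kcnu1 (chr8:25881375-25881419, plus strand): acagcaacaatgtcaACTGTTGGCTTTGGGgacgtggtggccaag
Kcnt1 (chr2:25894352-25894396, plus strand): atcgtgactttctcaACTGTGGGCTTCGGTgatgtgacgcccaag
The aromatic codon was for tyrosine in Kcnma1, Kcnc4 and Kcng3 and for phenylalanine in Kcnh2, Kcnj8, Kcnu1 and Kcnt1. Among these 7 windows the closest pairs shared 12 of the 15 filter bases, as Kcnc4 and Kcng3 did, with 32 of 45 bases equal over the window. Kcnj8, an inward rectifier, differed most outside the filter and shared 13 of 45 bases with Kcnh2. The codons were present in at least 1 transcript of all 63 pore-forming members and in none of the 16 auxiliary members. They are not particular to these genes, since 589 of 21951 protein-coding genes with a coding sequence (2.68%) held such a run.

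Annotated genes drew 32231301 expected counts in replicate 1 and 30292851 in replicate 2. The limit for a gene with 0 counts, set at 3 counts, was 0.0931 and 0.0990 CPM (the same share of all gene counts on a fixed total), and such limits and all intervals below cover counting error alone. Defining genes of the labelled tissue were present, with 6 of 6 cortical and 6 of 6 chromaffin markers detected. All 4 markers of the zona glomerulosa, the aldosterone-producing zone, were detected too, but they summed to 395 and 305 TPM, and 1 of them, the aldosterone synthase gene Cyp11b2, was called higher in replicate 1, at 144 and 70.4 TPM. Markers of other tissues also differed between the libraries. The 6 liver markers summed to 160 TPM in replicate 1 and 4740 TPM in replicate 2, and 5 of 6 kidney tubule markers were over 2-fold higher in replicate 1. Skeletal muscle and erythroid markers were 1.83 and 1.84 times as high in replicate 2 in summed TPM. In whole tissue, fewer cells of a type and less RNA per cell cannot be told apart.

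Potassium channel transcripts were mostly scarce. Of the 79 genes, 32 (40.5%) were detected, where 60.4% of protein-coding genes and 27.2% of all annotated genes were, and their median was 0.755 TPM beside 3.35 TPM for protein-coding genes. Only 3 members, or 3.80%, reached 10 TPM, a level that 33.0% of protein-coding genes reached. A further 29 lay from 1 to under 10 TPM, 35 from 0.1 to under 1 TPM and 12 below 0.1 TPM. Together the members summed to 148 and 166 TPM in replicates 1 and 2, from 16645 and 17041 counts. The 14 tandem-pore genes, of which 5 were detected, summed to 335 and 289 TPM, so the other potassium channels together carried less transcript than that group in each library. In the plot of levels by gene, 3 genes stand clear of a continuous slope.

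**Figure D1:**
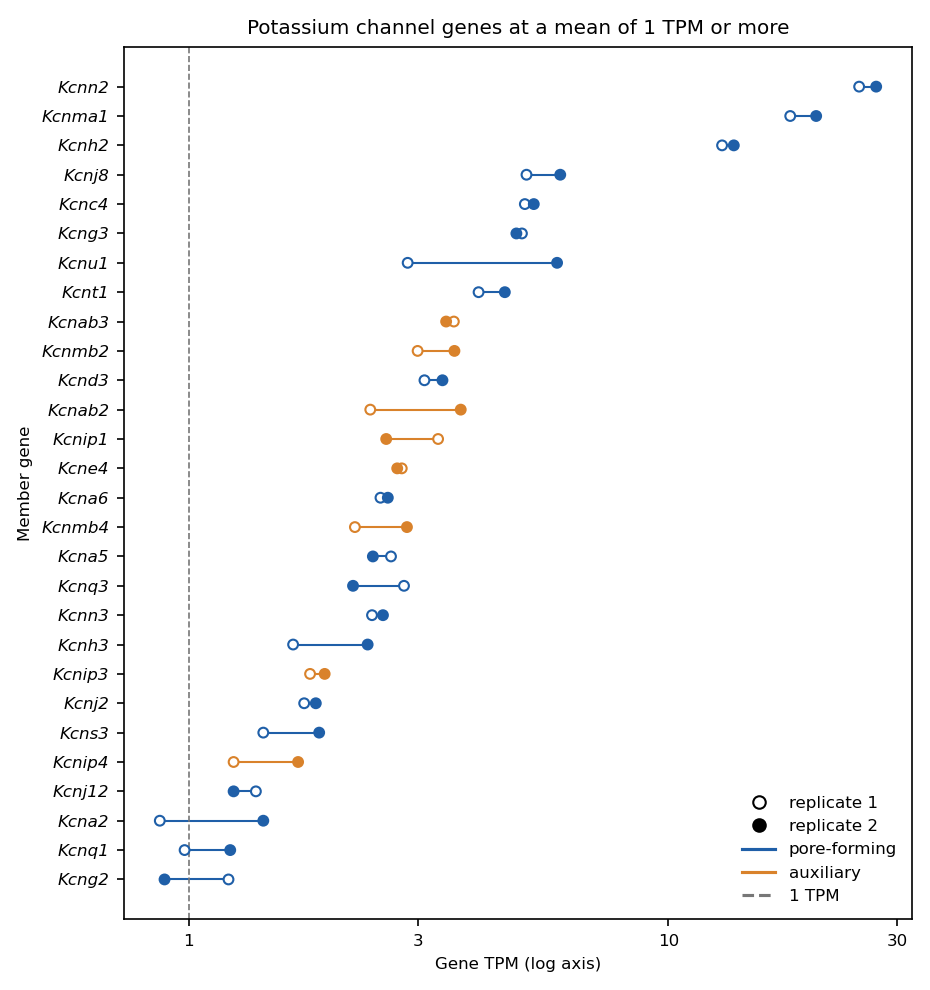
TPM of 28 of the 32 detected potassium channel genes on a log axis, with replicate 1 as open and replicate 2 as filled circles, pore-forming genes in blue and auxiliary genes in orange; the dashed line is 1 TPM. Kcnn2, Kcnma1 and Kcnh2 lie above 10 TPM in both libraries, and Kcnu1 has a wide gap, from 2.86 to 5.86 TPM.

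Genes of calcium-activated channels led the order. Kcnn2 (ENSMUSG00000054477.16, chromosome 18, 45268860 to 45686024, plus strand), which codes for the small-conductance channel SK2, had 24.99 and 27.12 TPM in replicates 1 and 2, a mean of 26.1 ± 1.51 TPM (SD, n = 2). Kcnma1 (ENSMUSG00000063142.15, chromosome 14, 23289431 to 24014491, minus strand), the large-conductance BK channel opened by calcium and voltage, had 17.95 and 20.33 TPM, or 19.1 ± 1.68 TPM. Both libraries put Kcnn2 above Kcnma1, and their ranges did not overlap. Kcnn2 ranked 3081 and Kcnma1 4378 among the 22028 protein-coding genes.

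The remaining SK genes were low. Kcnn3, coding for SK3, had 2.41 and 2.54 TPM, so its log2 ratio to Kcnn2 was -3.37 and -3.42 in the 2 libraries, a 10.5-fold lower level per length. Kcnn4, the intermediate-conductance channel of red and white blood cells, had 0.71 and 1.06 TPM. Kcnn1 (SK1) had 0.85 and 0.50 TPM. Kcnn4 stood higher in replicate 2 and Kcnn1 in replicate 1, each with counts under 70. The calmodulin genes, whose product is the calcium sensor of SK channels, were abundant, from 114 TPM for Calm3 to 208 TPM for Calm2 in replicate 1.

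The TPM of Kcnn2 was assigned mainly to transcripts that start inside the gene. Coding transcripts that start at base 45560154 (Kcnn2-203 and Kcnn2-208, with 1302 and 1722 coding bases) carried 14.99 and 17.25 TPM, or 78.3% and 82.5% of the gene's coding TPM. Those that start at base 45269005 (Kcnn2-201 and Kcnn2-205, with 2517 and 1722 coding bases) carried 21.7% and 17.5%. In the alignment-free tables, a second quantification of the same reads, the internal start took 63.8% and 72.4%. It held the larger share in both libraries of both tables, although its size moved between them.

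The BK channel gene was accompanied by auxiliary β and γ subunit genes. Kcnmb2, whose product inactivates BK channels, had 3.00 and 3.58 TPM, and Kcnmb4, the β subunit best known from neurons, 2.22 and 2.85 TPM. Kcnmb3 had 0.37 and 0.06 TPM from 20 and 3 counts, and Kcnmb1, the β subunit of smooth muscle, 0.04 and 0.06 TPM from 6 and 7 counts. So 2 of the 4 β genes were detected. Kcnma1 exceeded the 4 summed by 1.67 and 1.63 on the log2 scale, 3.15-fold. For Kcnmb4, 20.9% of the exon bases are shared with the opposite-strand gene Kcnmb4os2, which was listed at 2.03 and 2.62 TPM. Use of the strand in counting was not stated, so reads of this overlap cannot be told apart. Of the γ subunit genes, Lrrc55 had 6.79 and 5.28 TPM, Lrrc38 and Lrrc52 stayed at or below 0.10 TPM, and Lrrc26 was listed at 0.

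Kcnma1 has 38 annotated transcripts, 31 of them protein-coding, and its TPM was spread over many. In the alignment-based tables the highest, Kcnma1-221 with 3339 coding bases, held 4.98 and 6.00 TPM, or 27.7% and 29.5% of the gene. Kcnma1-205 followed with 3.44 and 5.10 TPM. The order was different in the alignment-free tables, where Kcnma1-221 had 9.04 and 5.58 TPM and Kcnma1-205 5.69 and 8.10 TPM. Kcnma1-214 had 2.02 TPM in replicate 1 and 0 in replicate 2 by alignment but 2.65 and 2.12 TPM without it, so shares of single isoforms were less reproducible than the gene's level. Kcnma1-215, with 573 coding bases and no filter codons, was listed at 1.91 and 2.24 TPM.

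Channels activated by sodium or by alkaline pH belong to the same extended family. Kcnt1, a sodium-activated channel, had 4.02 and 4.56 TPM at gene level, but transcripts annotated as retained introns carried 78.4% and 68.0% of it, and 89.8% and 84.4% together with the nonsense-mediated decay transcript Kcnt1-205. Its main transcript in the mean of the libraries, Kcnt1-209, is annotated as a retained intron of 532 bases and drew 14.4 and 18.7 counts. In replicate 1 Kcnt1-214, also a retained intron, was higher, at 1.06 TPM. Transcripts with the filter codons held 10.2% and 15.6% of the gene's TPM. In counts, Kcnt1-201, which has the filter codons, drew 79.1 and 122 of the gene's 318 and 369. Kcnt2 had 0.55 and 0.59 TPM. Kcnu1 (ENSMUSG00000031576.16, chromosome 8, 25849623 to 25937939, plus strand), the pH-gated channel known from sperm, had 2.86 and 5.86 TPM, from 241 and 440 counts. The library of replicate 2 held 1.90-fold more after scaling, a log2 ratio of 0.93 (95% counting interval 0.70 to 1.16), with an adjusted p of 6.50e-15 by the exact binomial test over 18160 genes. It missed the 2-fold limit used here. Replicate 2 was also the library with more liver marker RNA, where 6 of 6 markers were called higher, from 160 to 4740 summed TPM with none at 0. Other lists were higher in it too, among them erythroid and skeletal muscle markers, at 1.84 and 1.83 times the summed TPM. Cortex, zona glomerulosa, chromaffin and kidney tubule lists were lower. The part of any of these tissues in the Kcnu1 difference was not tested. The full-length coding transcript Kcnu1-201 held 1.64 and 3.55 TPM. Kcnu1-202, which lacks the filter codons, held 1.22 and 1.62 TPM.

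Kcnh2 was the leading gene of the voltage-gated group. Kcnh2 (ENSMUSG00000038319.14, chromosome 5, 24319589 to 24351604, minus strand) codes for the ERG channel that repolarises heart muscle and paces firing in endocrine cells. It had 12.94 and 13.69 TPM from 1342 and 1264 counts, a mean of 13.3 ± 0.530 TPM (SD, n = 2). The 4 heart markers were all below a mean of 1 TPM, with Nppa at 0, and summed to 0.83 and 2.37 TPM. Among other lists, cortex, chromaffin, smooth muscle and pericyte, skeletal muscle and neuron markers were all detected. The cells that carried the Kcnh2 transcripts were not tested. The other members of the Kcnh family were lower: Kcnh3 had 1.65 and 2.36 TPM, while Kcnh1, Kcnh4, Kcnh5, Kcnh6, Kcnh7 and Kcnh8 had means from 0.080 to 0.235 TPM. Kcnh2 thus stood alone in its family above 10 TPM in both libraries.

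The coding TPM of Kcnh2 was assigned to a pair of annotated starts that give different amino ends. The long form, Kcnh2-201, starts at base 24351604 and has 3486 coding bases. It held 6.47 and 7.33 TPM, or 61.8% and 68.7% of coding TPM. The short form, Kcnh2-202, starts within the gene at base 24329591 and has 2460 coding bases. It held 4.00 and 3.34 TPM, or 38.2% and 31.3%, and 33.1% and 27.9% in the alignment-free tables. The long form was the larger in both libraries and both kinds of table. Since TPM was assigned to the short form in both libraries, the 250 bases before its start are shown, from RefSeq on GRCm38.p6, minus strand, 5′ to 3′. Capitals mark 3 GC boxes, GGGCGG.
Kcnh2 internal start (chr5:24329592-24329841, minus strand): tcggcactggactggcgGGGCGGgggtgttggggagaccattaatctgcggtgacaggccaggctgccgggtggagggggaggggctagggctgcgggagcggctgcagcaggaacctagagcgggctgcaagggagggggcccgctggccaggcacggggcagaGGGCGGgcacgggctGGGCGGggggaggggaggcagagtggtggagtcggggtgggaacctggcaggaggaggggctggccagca
The stretch was 73.6% G and C and held 14 CpG. Over windows from 250 bases before to 50 after the RefSeq start, GGGCGG on either strand was found in 38.2% of 27025 genes and in 35 of the 57 members with an entry (61.4%). CAAGGTCA, an extended half-site of the steroidogenic factor NR5A1, was found in 1.76% of these genes and in 1 member, Kcnf1. TGACGTCA, the cyclic AMP response element, was found in 2.03% and in 0 of 57 members. The 27025 genes were not limited to protein-coding genes, as the members are, so these percentages do not compare like sets. Such matches describe letters only.

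Fast channels of the Shaw type and the delayed rectifier gene Kcnb2 were expressed at up to a few TPM. Kcnb2 had 0.77 and 1.14 TPM. Kcnc4, of the Shaw type, had 5.02 and 5.24 TPM. Kcnc1, of the same type, had 0.43 and 1.08 TPM, and Kcnc2 0.16 and 0.15 TPM. Kcnc4 lay above the others named in both libraries, and the counts of Kcnc1 were 102 and 183, higher in replicate 2. Amigo1, an auxiliary protein of Kv2 channels, had 6.57 and 6.01 TPM.

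Silent subunits, which form no channel alone and modify Kv2 channels, were led by Kcng3. It had 4.95 and 4.82 TPM, with ranges that overlapped those of Kcnu1. Kcns3 had 1.43 and 1.87 TPM and Kcng2 1.21 and 0.89 TPM, so Kcng2 passed 1 TPM in replicate 1 only. The remaining silent subunit genes Kcng1, Kcng4, Kcns1, Kcns2, Kcnf1, Kcnv1 and Kcnv2 had means from 0.030 to 0.315 TPM.

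Shaker-type and Shal-type genes followed. Kcna6 had 2.51 and 2.60 TPM and Kcna5, a channel known from vascular and heart muscle, 2.64 and 2.42 TPM. Kcna2 had 0.87 and 1.43 TPM from 253 and 407 counts, and Kcna1 0.73 and 1.23 TPM. Kcna2 and Kcna1 were higher in replicate 2, while Kcna6 and Kcna5 had log2 ratios of scaled counts, replicate 2 over replicate 1, of 0.05 and -0.22. Kcna10 had 0 counts in both libraries, which allows up to 0.0874 and 0.0970 TPM. Kcnd3, which carries transient A-type current, had 3.10 and 3.38 TPM, above Kcnd2 with 0.76 and 1.01 TPM and Kcnd1 with 0.93 and 0.79 TPM. Of the 8 Kcna genes, 6 lie in clusters: Kcna5, Kcna1 and Kcna6 within 208124 bases of chromosome 6, and Kcna3, Kcna2 and Kcna10 within 159553 bases of chromosome 3. Neighbours differed in level, since Kcna1 lay between Kcna5 and Kcna6 at under a mean of 1 TPM.

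Genes of M-type channels, which stay open near the resting potential and are closed by muscarinic receptors, and their relative Kcnq1 came next. Kcnq3, which codes for an M-type subunit, had 2.81 and 2.20 TPM. Kcnq1 had 0.98 and 1.22 TPM, and Kcnq5 0.63 and 0.64 TPM. Kcnq3 stood above Kcnq1 and Kcnq5 in both libraries, and Kcnq1 above Kcnq5. Kcne1, the subunit that slows Kcnq1 in heart and ear, was listed at 0.03 and 0.07 TPM from 3 and 2 counts. The log2 ratio of Kcnq1 to Kcne1 was 5.03 and 4.12, with a denominator too thinly counted for a precise size. Akap9, the scaffold of that complex, had 22.3 and 28.2 TPM. Kcnq1 shares 121 exon bases with the opposite-strand Kcnq1ot1, itself at 1.73 and 1.78 TPM.

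Inward rectifiers were led by the pore of the vascular ATP-sensitive channel. Kcnj8 (ENSMUSG00000030247.9, chromosome 6, 142564837 to 142571614, minus strand), coding for Kir6.1, had 5.06 and 5.95 TPM. Kcnj11, the Kir6.2 pore of pancreatic β cells, had 0.55 and 1.00 TPM. The log2 ratio of Kcnj11 to Kcnj8 was -3.20 and -2.57, a mean of -2.89 ± 0.44 (SD, n = 2), or 7.40-fold lower. The sulfonylurea receptor genes stood in the same order. Abcc9, the receptor that joins Kir6.1 in vessels, had 10.9 and 11.6 TPM, and Abcc8, its counterpart in β cells, 0.46 and 0.27 TPM. Their log2 ratio, Abcc8 to Abcc9, was -4.56 and -5.42, or 31.8-fold lower. Each receptor gene neighbours its channel gene in the annotation, Abcc9 next to Kcnj8 and Abcc8 next to Kcnj11. All 5 smooth muscle and pericyte markers were detected, with sums of 59.1 and 66.6 TPM, and the pancreas list had 0 of 3 members at 1 TPM. The cortex, chromaffin, endothelium and skeletal muscle markers were all detected too, the last with sums of 559 and 1026 TPM. Which cells carried the Kcnj8 and Abcc9 transcripts was not tested.

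The other 13 inward rectifier genes were low, and 2 of them were detected. The strong rectifiers Kcnj2 and Kcnj12, which hold muscle cells at rest, had 1.74 and 1.84 TPM and 1.38 and 1.24 TPM. Kcnj10, a channel of glia, had 0.68 and 0.64 TPM. Kcnj3, a G protein-gated channel, had 0.32 TPM in each library from 28 and 38 counts. Kcnj13 had 0 counts in both libraries, as 18.4% of protein-coding genes did, which allows up to 0.136 and 0.151 TPM. In Kcnj13, 49.1% of exon bases are shared with the opposite-strand gene Gigyf2.

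Kcnj5 depended on the table used. Its product is the G protein-gated channel Kir3.4, and its human counterpart is mutated in many aldosterone-producing adenomas. The gene tables gave 0.12 TPM in each library, from 18 and 11 counts, whereas the alignment-free tables gave 1.54 and 1.04 TPM, 12.8 and 8.67 times as much. For detected members the alignment-free mean was a median 1.76 times the gene-table mean, and for protein-coding genes 1.86 times. The alignment-free TPM lay mostly on Kcnj5-203, at 1.19 and 0.88 TPM, which the alignment-based tables listed at 0.00 and 0.03 TPM. The log2 ratio of Kcnj5 to Kcnj3 was therefore -1.42 in the gene tables and 1.24 in the alignment-free tables, and the order of this pair was not settled.

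**Figure D2:**
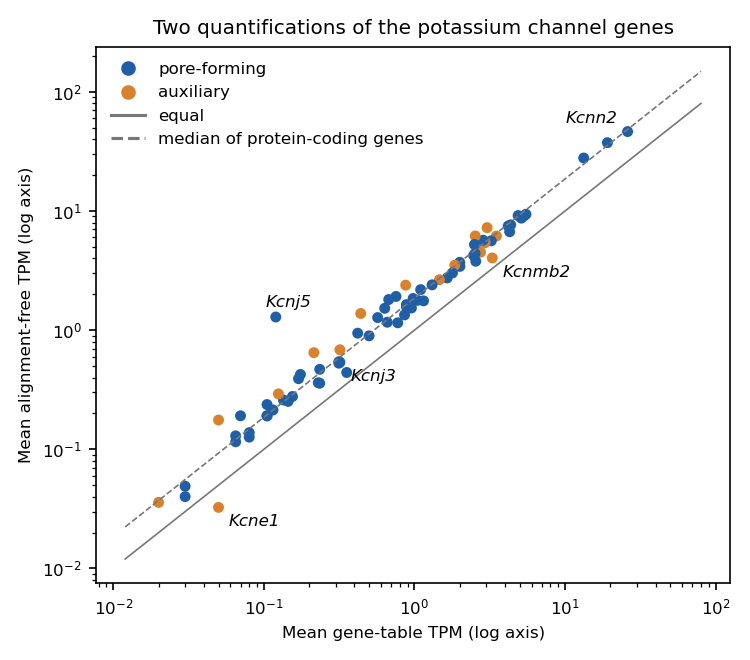
Mean TPM over 2 libraries in the gene tables (horizontal) and the alignment-free tables (vertical), both on log axes, for potassium channel genes above 0; the solid line marks equal values and the dashed line the median ratio of protein-coding genes. Most genes follow the dashed line, while Kcnj5 lies far above it at 0.12 TPM on the horizontal axis.

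Auxiliary subunits of voltage-gated channels were detected at up to a few TPM. Kcnab3 and Kcnab2, cytoplasmic β subunits of Shaker-type channels, had 3.57 and 3.44 TPM and 2.39 and 3.69 TPM. Kcnab1 had 0.57 and 1.18 TPM. Kcnip1, Kcnip3 and Kcnip4, calcium-binding partners of the Kcnd channels, had 3.31 and 2.58, 1.79 and 1.92, and 1.24 and 1.69 TPM. Dpp6, another partner of these channels, had 1.87 and 3.29 TPM. Kcne4, a single-span inhibitor of Kcnq1 and Shaker-type channels, had 2.78 and 2.72 TPM and was the only Kcne gene detected of 4, with Kcne2 at 0.02 TPM. In all, 8 of 16 auxiliary genes and 24 of 63 pore-forming genes were detected, with medians of 1.17 and 0.675 TPM. Pore-forming genes carried 134 ± 10.7 TPM in sum and auxiliary genes 23.5 ± 1.70 TPM (SD, n = 2).

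**Figure D3:**
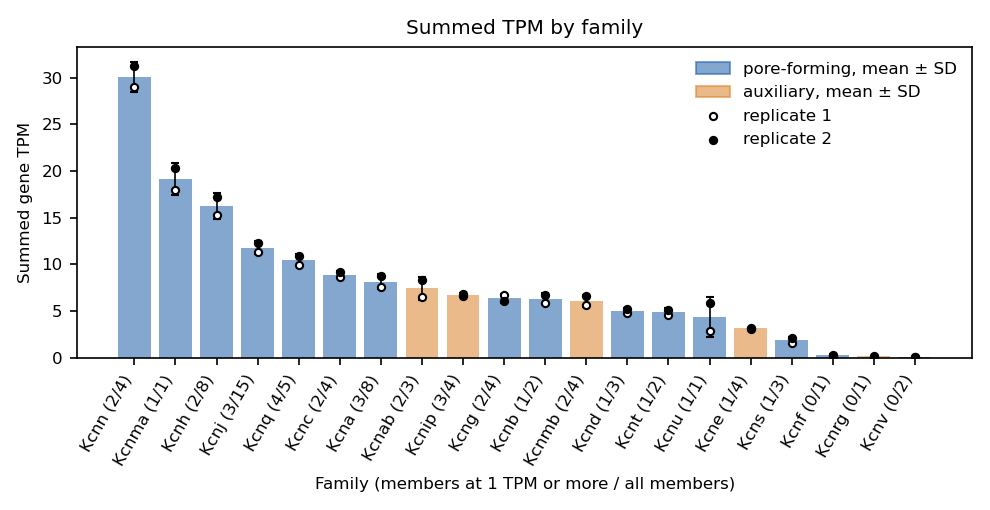
Summed TPM of each Kcn family, as bars for the mean of 2 libraries with the SD as error bars and each library as a point, pore-forming families in blue and auxiliary in orange. Kcnn, Kcnma and Kcnh are the 3 highest families, with means of 30.1, 19.1 and 16.3 TPM, and each rests mainly on 1 gene.

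By family, Kcnn summed to 30.1 ± 1.60 TPM, Kcnma to 19.1 ± 1.68 TPM and Kcnh to 16.3 ± 1.37 TPM (SD, n = 2). Kcnj, with 15 genes the largest family, summed to 11.8 ± 0.721 TPM. Kcnn2, Kcnma1 and Kcnh2 alone made up 37.6% and 36.8% of the members' summed TPM. Among the 25 highest genes, 17 of the 24 neighbouring pairs in the order overlapped over the libraries, so the order below Kcnh2 was only partly resolved. The detected genes just above 1 TPM were Kcna2, Kcnq1 and Kcng2, at means of 1.15, 1.10 and 1.05 TPM, and those just below were Kcna1, Kcnb2, Kcnd2 and Kcnn4, at 0.980, 0.955, 0.885 and 0.885 TPM. Of the members, 29 reached 1 TPM in both libraries and 10 in only 1.

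Of the 13 genes fixed as partners of these channels, 8 were detected, beside 60.4% of protein-coding genes. Of these 13, 1, Dpp10, passed the exact binomial test and 2-fold between the libraries, at 0.24 and 0.54 TPM, where 3.98% of 18160 genes did. Of 19 other genes of membrane excitability, 15 were detected and 0 were called. These included the calcium channel genes Cacna1h and Cacna1d, at 22.8 and 22.7 TPM and at 10.9 and 11.6 TPM, and the tandem-pore genes Kcnk3, at 296 and 255 TPM, and Kcnk9, at 22.4 and 21.3 TPM. Kcnk3, a background potassium channel of the aldosterone-producing zone, thus had a higher TPM than the 79 members summed in each library.

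Most detected members were carried by protein-coding transcripts. The main transcript was protein-coding in 31 of 32, and in 28 of the 29 with at least 2 transcripts, beside 92.4% of 12054 such protein-coding genes. Kcnt1 was the exception in the mean of the libraries. With replicate 2 alone, 29 of the 32 had a protein-coding main transcript. There the highest transcript of Kcnab3, Kcnab3-203, is annotated as a retained intron, and that of Kcna6, Kcna6-201, as a nonsense-mediated decay transcript. The main transcript was the same in both kinds of table for 26 of 29, beside 75.6%, and in both libraries of the alignment-based tables for 22 of 29. Retained-intron transcripts nevertheless took 49.6% and 54.9% of Kcnab3, 39.8% and 44.5% of Kcnn3 and 31.3% and 39.4% of Kcnh3. In 23 of the 24 detected pore-forming genes, transcripts with the filter codons held over 50% of the gene's TPM, and the median was 83.9%.

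**Figure D4:**
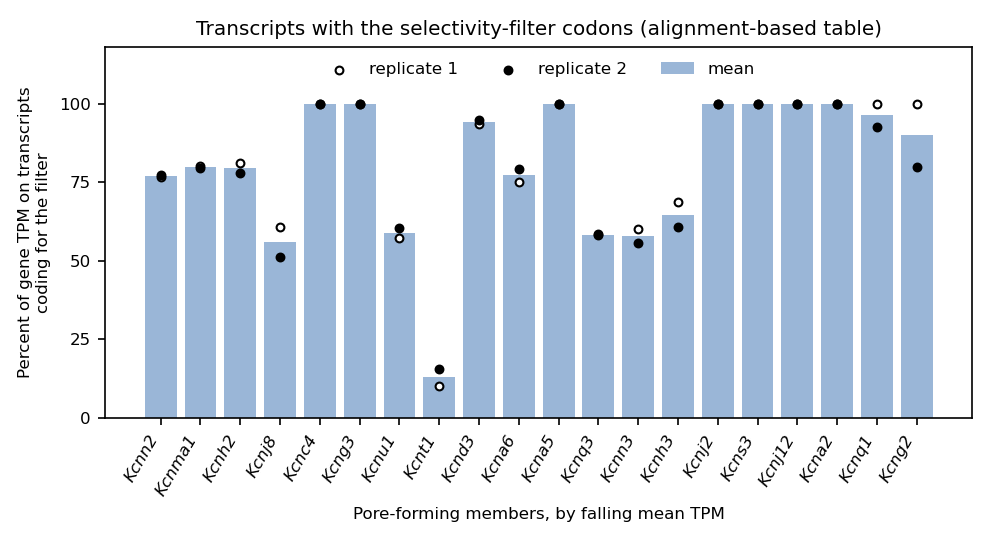
Percent of gene TPM, for 20 of the 24 detected pore-forming genes, on transcripts with the 5 filter codons in frame, from the alignment-based tables; bars are means of 2 libraries and circles single libraries, in order of falling gene TPM. Kcnt1 lies at 10.2% and 15.6%, and the other 19 genes lie above 50%.

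Differences between the libraries were mostly under 2-fold, in the detected members as in other detected genes. Their median log2 ratio, replicate 2 over replicate 1 of TMM-scaled counts, was 0.04, beside -0.02 for all detected genes, and the median of absolute ratios was 0.17 beside 0.136 for protein-coding genes. None of the 32 passed 2-fold, while 455 of 13305 detected protein-coding genes did. Replicate 2 was higher in TPM for 23 of 32 but in scaled counts for 17 of 32. TPM itself was shifted, by a median of 0.08 on the log2 scale for detected protein-coding genes, and the sign differed between the scales for Kcnn2, Kcnh2, Kcnc4, Kcnmb2, Kcnip3 and Kcnj2. In Kcnmb2, TPM was higher in replicate 2 while its counts were 200 and 150. The 338-base transcript Kcnmb2-206 was listed at 0.37 and 1.28 TPM from 2.92 and 9.12 counts. In the alignment-free tables the gene's TPM was lower in replicate 2, at 4.56 and 3.51.

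Of the 60 members with enough counts to be tested, 2 passed an adjusted p of 0.05 and 2-fold by the exact binomial test, beside 3.98% of 18160 genes. Both were higher in replicate 1, where 0.606% of genes were called in that direction. Kcnj15, an inward rectifier known from kidney, had 91 and 39 counts (0.58 and 0.26 TPM). It was 2.22-fold higher in replicate 1, a log2 ratio of -1.15 (95% counting interval -1.74 to -0.61), with an adjusted p of 0.000118 by the exact binomial test. Kcng4, a silent subunit, had 51 and 23 counts (0.42 and 0.21 TPM), with a log2 ratio of -1.07 (interval -1.87 to -0.35) and an adjusted p of 0.0108 by the exact binomial test. Below the count filter, Kcnj16, a partner of Kcnj10 in renal tubules, had 46 and 9 counts, and Kcnmb3 20 and 3. Not all inward rectifiers followed. Kcnj10 itself had 119 and 102 counts, a log2 ratio of -0.16, and was not called. Kcnj1, also below the filter, went the other way with 6 and 9 counts. All these genes were below a mean of 1 TPM. Replicate 1 also had more of the kidney tubule list, 7.71 against 3.19 summed TPM, with 2 of 6 markers at a mean of 1 TPM, 5 of 6 called higher and none at 0. The part of that tissue in these differences was not tested.

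**Figure D5:**
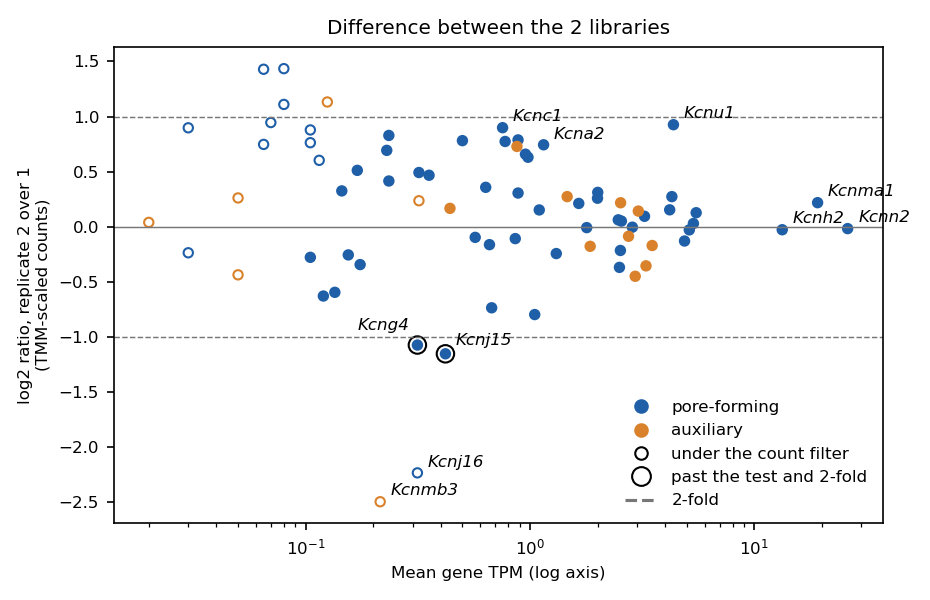
Log2 ratio of replicate 2 over replicate 1 of TMM-scaled counts against mean TPM on a log axis; filled points passed the count filter, open points did not, and rings mark Kcng4 and Kcnj15, past the test and 2-fold. Dashed lines are 2-fold, and genes above 1 TPM lie between them.

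With the adjusted p of the exact binomial test alone and no limit on size, 16 of the 60 were called, beside 33.5% of 18160 genes. Among the detected genes these were 7. Kcnma1 was called at a log2 ratio of 0.22 (adjusted p 9.78e-08, exact binomial test) from 2748 and 3069 counts, and Kcna2 at 0.74 (adjusted p 1.10e-09, exact binomial test). For Kcnma1 and Kcna2 the difference between these libraries was therefore larger than counting error. That did not hold for every well-counted member: Kcnn2, from 1632 and 1548 counts, and Kcnh2, from 1342 and 1264, were not called. With 1 library per animal a difference between the libraries has no further replicate.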

How the data were processed

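Total RNA libraries from 2 adrenal glands were used. Per the file descriptions, the authors deposited gene and transcript tables derived from a transcriptome alignment and alignment-free transcript tables, all against mm10 and GENCODE release M21. Programs and versions: not given in the sources used here. Expected counts, as deposited by the authors, share reads among transcripts. The deposited TPM values scale those counts by effective length and sum to the same total in each library, so abundant short RNAs lower the TPM of messenger RNAs. Rows with a number for a gene (26248, with 3 and 2 counts) and spike-ins (1.06% of counts) were left out.

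Counts were rounded. The filterByExpr function of edgeR 4.0.16 (R 4.3.3) kept 18160 genes, and TMM set the library sizes. Replicates were compared per gene by an exact two-sided binomial test against those sizes (smaller tail doubled, scipy 1.17.1), adjusted by Benjamini-Hochberg over all 18160, and called at 0.05 and over 2-fold. The script was tested on simulated data. Log2 ratios used a prior count of 0.5, and intervals were exact Clopper-Pearson at 95%. Transcript sequences, coordinates and overlaps came from the GENCODE M21 files and promoters from RefSeq, where 57 of 79 members matched by symbol. Filter codons were searched in frame. Alternatives were the alignment-free tables, TPM over protein-coding genes, limits of 0.5 and 5 TPM, DESeq2 1.42.0 size factors, spike-in sizes, no filter, a prior of 2 and single libraries.

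Named genes were the 25 highest members, those called between replicates, those of 6 fixed ratios, those whose detection differed between tables, the 3 nearest on each side of 1 TPM (with ties), those with 0 counts, and the partner and excitability lists. Others were named to complete a family after their values were seen. The members and lists were chosen with earlier results of these data known. Some members are not reported here by name or drawn singly, but they entered every fit, count, sum and median.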

Additional observations from a re-analysis of the deposited data

How the results depend on the processing

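No paired analysis was possible because the series holds 1 group. The number of members detected moved with the scale: from 32 to 46 in the alignment-free tables (58.2%, beside 65.2% of protein-coding genes), to 47 with TPM over protein-coding genes (59.5% beside 66.2%), to 45 at 0.5 TPM (57.0% beside 64.7%) and to 6 at 5 TPM (7.59% beside 44.9%). In each, the members' percentage stayed below that of protein-coding genes. The 14 genes detected only in the alignment-free tables were Kcna1, Kcnb2, Kcnd2, Kcnn4, Kcnab1, Kcnd1, Kcnj11, Kcnc1, Kcnn1, Kcnj10, Kcnq5, Kcnt2, Kcnip2 and Kcnj5. With single libraries 30 to 38 were detected. Summed TPM of pore-forming and auxiliary genes became 246 and 45.4 in the alignment-free tables and 353 and 61.9 with TPM over protein-coding genes. Members called between replicates numbered 2 (of 723 genes called in all) and stayed the same genes with DESeq2 sizes (2 of 723) or spike-in sizes (2 of 740). They were 4 of 1195 without the count filter (adding Kcnj16 and Kcnmb3), 16 of 6084 by adjusted p alone, and 2 of 755 with alignment-free counts, where they were Kcnj16 and Kcnu1. The median log2 ratio of 0.04 became -0.0003135 with alignment-free counts. In the alignment-free tables the log2 ratio of Kcnj5 to Kcnj3 reversed to 1.24, that of Kcnma1 to the β genes became 1.77, of Kcnq1 to Kcne1 6.26 and of Kcnn3 to Kcnn2 -3.45. The causes were not tested. The 25 highest members were the same in the alignment-free tables and with replicate 2 alone, and with replicate 1 alone Kcnj2 replaced Kcnh3.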
